A study of Rattus norvegicus with 9 samples.

Results

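The genes described are 7 markers of the oligodendrocyte lineage and its precursors, Olig1, Olig2, Sox10, Cspg4, Pdgfra, Gpr17 and Ptprz1, in RNA sequencing of the rat hippocampus. They were taken by gene name from a count table of 30562 genes, where each name belonged to 1 gene ID, and all 7 were found. Of the 7, 6 passed a filter on low counts and were tested among 7073 genes; Pdgfra did not pass and is given by its counts. There were 9 libraries in 3 groups of 3, ChryM, Model and Ctrl, from male Sprague-Dawley rats that were 6 to 8 weeks old at the start. Model rats were fed a high-fat diet (4 weeks), injected with streptozotocin at 50 mg/kg, a toxin of insulin-producing cells, kept where fasting glucose stayed at or above 16.7 mmol/L, and then exposed to unpredictable mild stress (5 weeks). ChryM rats were gavaged with chrysophanol, a plant anthraquinone, over 14 days. That ChryM rats had also been through the diabetes and stress protocol is taken from the title of the series, and no dose is given in the labels. Ctrl rats were normal controls that had neither protocol. The labels do not say whether each library is a separate animal, so p-values measure the spread between these libraries and may not extend to rats. That spread was small: edgeR's common estimate of variation beyond counting error was 5.5%. Whether libraries of a group share animals was not tested.

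Oligodendrocyte precursors persist in the adult brain, divide, and give rise to the cells that wrap axons in myelin. Olig1, Olig2 and Sox10 are transcription factors that act through most of this lineage, from precursor to myelinating cell. Cspg4 encodes the surface proteoglycan NG2 and Pdgfra the receptor for the growth factor PDGF-A, and both fall as precursors mature. Gpr17 encodes a membrane receptor that marks the short stage between precursor and myelinating cell. Ptprz1 encodes a receptor tyrosine phosphatase bound by the secreted proteins pleiotrophin and midkine. Several of the 7 are not exclusive to the lineage: Cspg4 is also made by pericytes, Pdgfra by fibroblasts, Sox10 by Schwann cells and Ptprz1 by astrocytes.

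Library totals ran from 631119 to 866048 counts under gene names, which is low. Whether the sequencing itself was shallow is not known, since raw reads were not used. The 7 genes together had 160 to 196 counts in ChryM libraries, 117 to 154 in Model libraries and 214 to 281 in Ctrl libraries. Single genes had 3 to 89 counts per library, so counting error sets most of the precision. The libraries were made to keep strand, per the labels' protocols, but no source used here tells whether reads were counted by strand. The mitochondrial gene Mt-nd6, which lies on the opposite strand from the other mitochondrial protein genes, had 9918 to 22156 counts per library against 6752 to 10679 for Mt-co1, while the abundant neuronal gene Camk2a had 67 to 156. Values below are therefore reads counted under a gene's name, and whether they are sense reads was not tested. The groups also differed in genes of the choroid plexus, the tissue that makes cerebrospinal fluid: its marker Ttr averaged 42.7 CPM (counts scaled to library size) in ChryM, 3.14 CPM in Model and 1522 CPM in Ctrl libraries. Its marker genes Kl, Otx2, Aqp1, Prlr and Tmem72 had 0 counts in ChryM and in Model libraries. They were also low in Ctrl, at 7, 3, 8, 2 and 13 counts over all Ctrl libraries. Other choroid plexus markers were counted in every group. Enpp2 had 90 counts in ChryM, 63 in Model and 432 in Ctrl libraries, and Calml4 had 19, 7 and 21. In bulk tissue, fewer cells of a type and less RNA per cell cannot be told apart.

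Per unit of gene length, the transcription factors were the most abundant of the 7. In Ctrl libraries Olig1 averaged 49.1 ± 2.05 FPKM (fragments counted per kilobase of gene length, scaled to the library total; SD, n = 3), Sox10 19.6 ± 2.22 and Olig2 9.37 ± 1.43 FPKM, and the ranges of these genes did not overlap. Gpr17 (6.81 FPKM) and Ptprz1 (5.72 FPKM) overlapped each other, and Cspg4 (3.29 FPKM) and Pdgfra (1.85 FPKM) lay below them with ranges that did not meet. In Model libraries the order began with Olig1 at 27.1 ± 1.18 FPKM, and Sox10 (11.5 FPKM) and Olig2 (10.5 FPKM) overlapped there. Gpr17, Ptprz1, Cspg4 and Pdgfra followed at 3.66, 2.77, 1.47 and 1.35 FPKM in Model libraries, each overlapping the next. In ChryM libraries Olig1 (32.3 FPKM), Sox10 (16.7 FPKM) and Olig2 (7.59 FPKM) were again apart from one another. The 4 surface genes closed up in ChryM libraries, with Ptprz1 at 3.23 FPKM and Pdgfra, Cspg4 and Gpr17 at 1.99, 1.98 and 1.97 FPKM, and all neighbours overlapped.

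**Figure D1:**
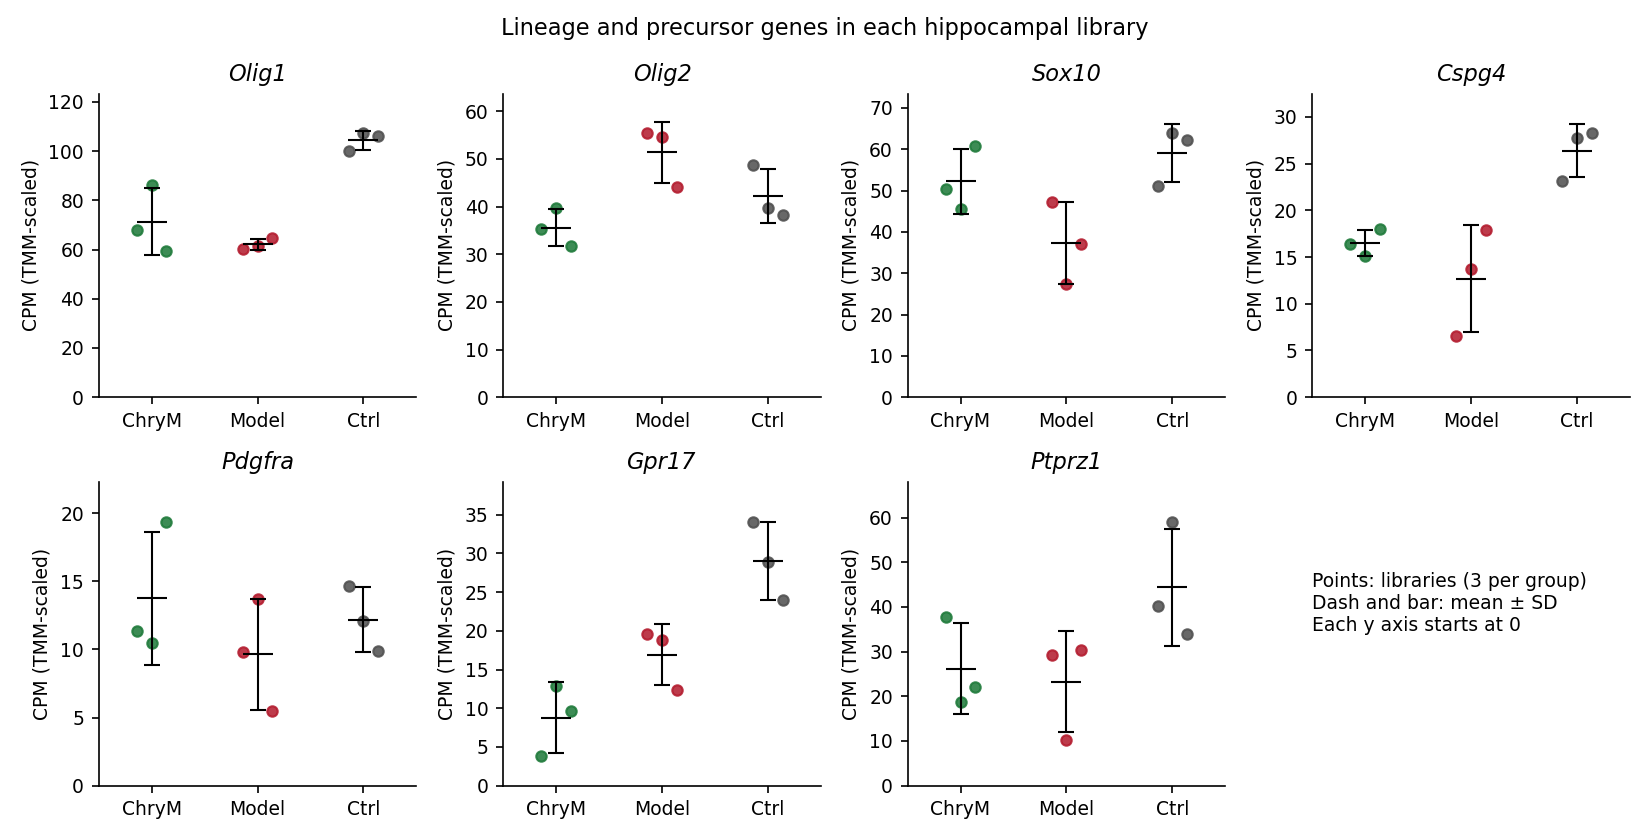
Level of each of the 7 genes in each library, in TMM-scaled CPM on axes that start at 0, by group (ChryM, Model, Ctrl; points are libraries, dash and bar are mean ± SD, n = 3). Olig1, Sox10, Cspg4, Gpr17 and Ptprz1 lie lower in every Model library than in any Ctrl library, Olig2 does not, and Gpr17 has its lowest mean in ChryM libraries (8.77 CPM).

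Promoter sequences from RefSeq (build GRCr8) were at hand for 4 of the 7 genes, Olig2, Cspg4, Pdgfra and Gpr17. Each window is 300 bases, 250 before the gene start and 50 after it. Those of Gpr17 and Cspg4 are shown because both genes were lower in a comparison described further on, and that of Olig2 because it was not. Capitals mark matches, on either strand, to GGGCGG (the GC box), CCAAT or TATAAA.
Gpr17 promoter, chr18:23857332-23857631 (- strand): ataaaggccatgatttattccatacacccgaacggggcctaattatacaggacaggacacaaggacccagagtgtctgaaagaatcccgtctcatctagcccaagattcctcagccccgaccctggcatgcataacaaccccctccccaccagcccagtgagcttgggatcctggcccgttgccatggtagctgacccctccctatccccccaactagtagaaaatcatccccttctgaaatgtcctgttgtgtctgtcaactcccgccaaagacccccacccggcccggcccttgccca
Cspg4 promoter, chr8:66160692-66160991 (+ strand): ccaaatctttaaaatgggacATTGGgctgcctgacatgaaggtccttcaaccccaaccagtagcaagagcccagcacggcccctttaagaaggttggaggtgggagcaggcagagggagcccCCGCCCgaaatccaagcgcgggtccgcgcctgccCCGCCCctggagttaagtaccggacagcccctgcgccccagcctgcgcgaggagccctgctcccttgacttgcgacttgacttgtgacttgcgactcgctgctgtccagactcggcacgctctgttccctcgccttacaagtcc
Olig2 promoter, chr11:43961335-43961634 (+ strand): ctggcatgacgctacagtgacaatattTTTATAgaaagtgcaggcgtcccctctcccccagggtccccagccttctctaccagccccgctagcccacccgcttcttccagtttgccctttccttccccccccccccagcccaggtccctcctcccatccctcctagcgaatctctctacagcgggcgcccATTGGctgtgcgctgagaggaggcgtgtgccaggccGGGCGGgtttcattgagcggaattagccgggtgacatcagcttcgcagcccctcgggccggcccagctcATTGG
The Gpr17 window held none of these motifs, the Cspg4 window held 2 GC boxes and 1 CCAAT, and the Olig2 window held 1 GC box, 2 CCAAT and 1 TATAAA match. The GC content was 56% in the Gpr17 window, 62% in the Cspg4 window and 63.3% in the Olig2 window, against a median of 51.7% over all promoters. The E-box CAGCTG and the SOX-type motif ACAAAG, letters often bound by OLIG and SOX proteins, were in none of the 4 windows. Of all 33469 promoters of this length, 15.1% held CAGCTG, 18.8% ACAAAG, 33.1% GGGCGG, 37.5% CCAAT and 14.2% TATAAA. A match is only a run of letters, and its absence says nothing about whether a factor acts on the gene.

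The first comparison asked which genes differed between Model libraries, from rats after the diabetes and stress protocol, and Ctrl libraries. These groups also differed in choroid plexus genes, as given above, and the part of the protocol itself was not tested. Olig1, Sox10, Cspg4 and Ptprz1 were lower in Model than in Ctrl hippocampus, by a factor of between 0.497 and 0.635, and none of the 6 tested genes was higher. These 4 of 6 passed edgeR's quasi-likelihood test, with p-values adjusted across the 7073 genes by the Benjamini-Hochberg method and a threshold of 0.05 (called, in what follows). Over all genes 5.39% were called lower and 7.04% called higher. The median log2 fold change was -0.78 over the 6 genes and -0.02 over all genes tested. Without Model 2 or without Ctrl 2 only Olig1 was called (1 of 7, since Pdgfra then passed the filter), without Ctrl 3 the count was 2 of 7, and with 1 surrogate variable it was 0 of 6.

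Among the transcription factors, Olig1 had 60.3, 61.5 and 64.7 CPM in Model 1 to 3, against 99.9, 107 and 106 CPM in Ctrl 1 to 3. Every Model library was thus far below every Ctrl library, and the libraries of each group lay close together. The log2 fold change was -0.74 ± 0.16 (SE; edgeR adjusted p = 0.000303), and Olig1 was called in all 9 fits that left out 1 library. Sox10, which turns on myelin genes, had 47.3, 27.3 and 37.2 CPM in Model libraries, against 51.2, 63.9 and 62.2 CPM in Ctrl libraries. The groups did not overlap, but Model 1 came close to Ctrl 1. Its log2 fold change was -0.65 ± 0.21 (edgeR adjusted p = 0.0234), and the call ended without Model 2, Model 3, Ctrl 2 or Ctrl 3 (edgeR adjusted p = 0.196, 0.086, 0.109 and 0.063).

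Olig2, the gene next to Olig1 on the chromosome and required to specify the lineage, was not called lower. It had 55.4, 54.7 and 44.1 CPM in Model libraries, against 48.7, 39.8 and 38.2 CPM in Ctrl libraries. The groups overlapped, with Model 1 and Model 2 the highest of the 9 libraries. The log2 fold change was 0.26 ± 0.21 (edgeR adjusted p = 0.494), with a 95% interval of -0.15 to 0.68, so a rise of up to that size or a small fall was compatible with the counts. Set against each other within a library, Olig1 made up 52.1%, 52.9% and 59.5% of the Olig1 and Olig2 counts in Model libraries, against 67.2%, 73.0% and 73.5% in Ctrl libraries. This share was 54.9% ± 4.04 in Model and 71.2% ± 3.49 in Ctrl libraries (SD, n = 3 each), with no overlap, and it does not depend on how libraries are scaled. The share was looked at after the values of both genes were seen, and since an exact permutation test of 3 against 3 libraries cannot go below p = 0.1, no test of it is given.

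The precursor surface genes had few counts. Cspg4 had 6.52, 13.7 and 17.9 CPM in Model libraries (4, 8 and 13 counts), against 23.1, 27.7 and 28.3 CPM in Ctrl libraries (19, 23 and 20 counts). All Model libraries lay below the Ctrl libraries, and they were spread widely. The log2 fold change of Cspg4 was -1.01 ± 0.34 (edgeR adjusted p = 0.026). The call ended without Model 1, Model 2, Ctrl 2 or Ctrl 3 (edgeR adjusted p = 0.208, 0.0617, 0.0812 and 0.0685). In RefSeq, Cspg4 overlaps Cimap1c and a tRNA gene, so its counts are uncertain to the extent that reads were shared. Pdgfra, at 6, 8 and 4 counts in Model libraries against 12, 10 and 7 counts in Ctrl libraries, was too low to test. Its count ratio of Model over Ctrl was 0.76, with an exact 95% interval of 0.398 to 1.42 for counting error only. That interval includes both a fall of the size seen for Cspg4 and a rise.

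Ptprz1 had 29.3, 10.3 and 30.3 CPM in Model libraries, against 40.2, 59.1 and 33.9 CPM in Ctrl libraries. The groups did not overlap, although Model 3 lay just under Ctrl 3, and Model 2 and Ctrl 2 were the extremes. The log2 fold change was -0.91 ± 0.26 (edgeR adjusted p = 0.00857), and the call ended without Model 2 or Ctrl 2 (edgeR adjusted p = 0.17 and 0.179). Gpr17, the marker of the stage between precursor and myelinating cell, had 19.6, 18.8 and 12.4 CPM in Model libraries, against 34.1, 28.9 and 24.0 CPM in Ctrl libraries. Every Model library was below every Ctrl library, yet the log2 fold change of -0.81 ± 0.31 was not called (edgeR adjusted p = 0.0634). Counting Gpr17, 5 of the 6 tested genes had groups that did not overlap, with Model below, against 12.7% of all genes tested. The intervals of Gpr17 and Lims2 overlap on opposite strands in RefSeq, and Lims2 had 0 to 2 counts per library. Since it is not known whether reads were counted by strand, that low count cannot tell whether Lims2 reads were counted under Gpr17, and this was not tested.

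Marker lists of other cell types that also use these genes had the following levels, and their part in the result was not tested. The pericyte and smooth muscle list (15 genes, which include none of the 7) summed to 71.7 to 105 CPM in Model and 118 to 129 CPM in Ctrl libraries, and 1 of its 3 tested genes, Mcam, was lower. The fibroblast and meningeal list (18 genes) summed to 150 to 165 CPM in Model and 439 to 486 CPM in Ctrl libraries, with all 3 tested genes, Igf2, Igfbp2 and Ptgds, lower. Astrocyte genes (18 genes) summed to 8384 to 8866 CPM in Model and 7393 to 7510 CPM in Ctrl libraries, with 1 of 16 tested genes higher (Apoe) and 4 lower, among them Aqp4, Slc1a3 and Clu, and a median log2 fold change of -0.12. Apoe, a lipid carrier gene, made up most of that sum, and without it the list summed to 2895 to 3039 CPM in Model and 3055 to 3310 CPM in Ctrl libraries. The Schwann cell genes Pmp2 and Foxd3 had 0 counts in every library, and that list (11 genes) summed to 11.4 to 18.8 CPM in Model and 21.7 to 31.7 CPM in Ctrl libraries, with its 1 tested gene, Pmp22, not called. The choroid plexus list (16 genes) summed to 37.6 to 55.1 CPM in Model and 1773 to 1858 CPM in Ctrl libraries, with all 4 tested genes lower.

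**Figure D2:**
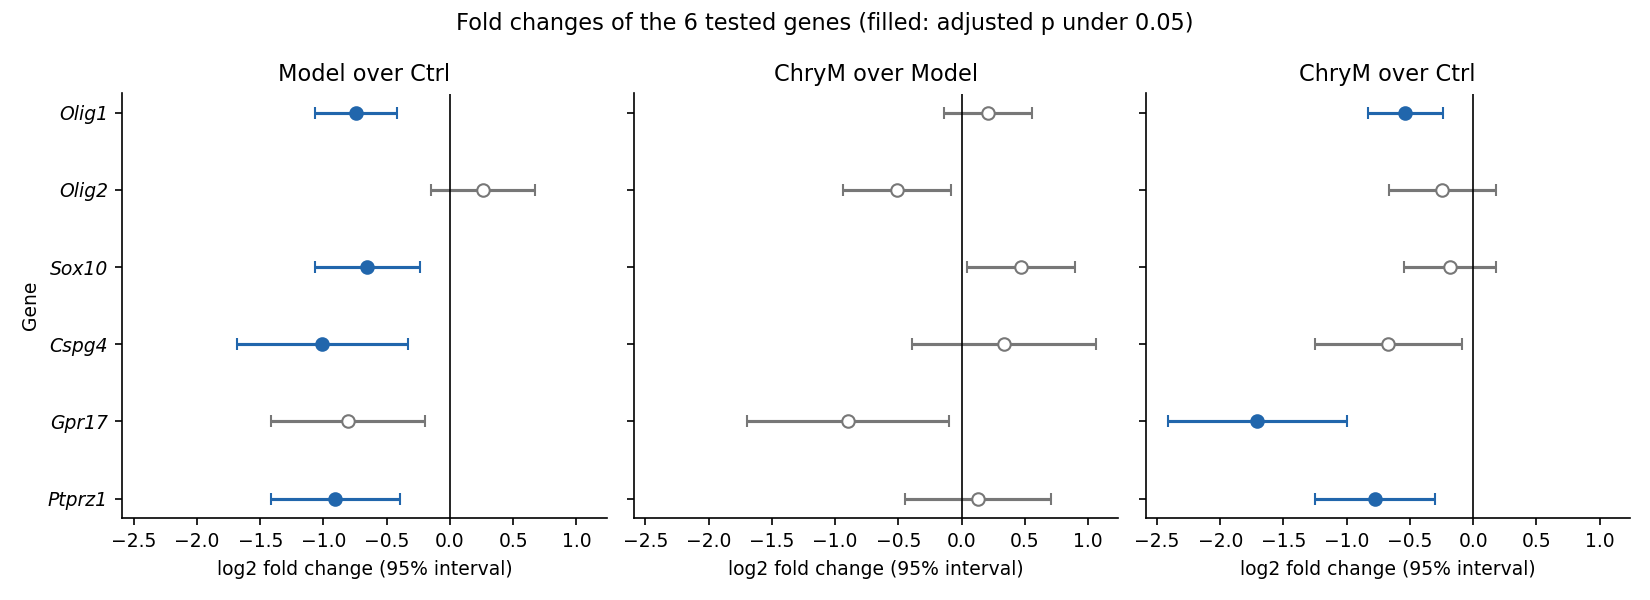
Log2 fold change (point) and 95% interval (bar) of the 6 tested genes in Model over Ctrl, ChryM over Model and ChryM over Ctrl; filled points have an edgeR adjusted p under 0.05. The 4 filled points in Model over Ctrl and the 3 in ChryM over Ctrl lie below 0, and ChryM over Model has none.

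The second comparison asked whether the genes differed after chrysophanol. None of the 6 tested genes was called in ChryM against Model, where 8.27% of all genes were called, 3.86% higher and 4.41% lower. At an unadjusted p under 0.05 there were 3, Olig2, Sox10 and Gpr17, against 19.3% of all genes. The limma-voom fit called none, nor did DESeq2, which gave an adjusted p for 3 of the 6. The median log2 fold change was 0.17 over the 6 genes and 0.00 over all genes. The 6 genes did not share a direction: Olig1, Sox10, Cspg4 and Ptprz1 had positive values and Olig2 and Gpr17 negative ones.

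Sox10 had 50.4, 45.5 and 60.9 CPM in ChryM libraries, against 47.3, 27.3 and 37.2 CPM in Model libraries. The groups overlapped through Model 1, and the log2 fold change was 0.47 ± 0.22 (edgeR adjusted p = 0.197; 95% interval 0.04 to 0.90). Olig2 had 35.3, 39.7 and 31.8 CPM in ChryM libraries, against 55.4, 54.7 and 44.1 CPM in Model libraries. It was the 1 gene of the 6 whose groups did not overlap, with ChryM below (11.7% of all genes tested did so), at a log2 fold change of -0.51 ± 0.22 (edgeR adjusted p = 0.154). Olig1 had 68.1, 86.3 and 59.5 CPM in ChryM libraries, against 60.3, 61.5 and 64.7 CPM in Model libraries, which overlapped. Its log2 fold change was 0.21 ± 0.18 (edgeR adjusted p = 0.581), with a 95% interval of -0.14 to 0.56. Within libraries the Olig1 share of Olig1 and Olig2 counts was 65.9%, 68.5% and 65.2% in ChryM libraries, above all 3 Model libraries.

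Gpr17 had its lowest mean in ChryM libraries, at 3.78, 12.8 and 9.69 CPM (3, 11 and 7 counts), against 19.6, 18.8 and 12.4 CPM in Model libraries (12, 11 and 9 counts). The groups just overlapped, with ChryM 2 above Model 3, and the log2 fold change of -0.90 ± 0.41 was not called (edgeR adjusted p = 0.178; 95% interval -1.70 to -0.10). Set against Sox10 within a library, Gpr17 made up 14.2% ± 7.52 of the Gpr17 and Sox10 counts in ChryM and 31.7% ± 8.14 in Model libraries (SD, n = 3 each). These did not overlap, with ChryM 2 (22%) nearest to Model 3 (25%). Set against Olig2, Gpr17 made up 19.2% ± 8.22 of the Gpr17 and Olig2 counts in ChryM and 24.5% ± 2.26 in Model libraries. These overlapped, with ChryM 2 (24.4%) and ChryM 3 (23.3%) above Model 3 (22.0%). No test of either share is given, since an exact permutation test of 3 against 3 libraries cannot go below p = 0.1. Cspg4 averaged 16.5 ± 1.42 CPM in ChryM and 12.7 ± 5.75 CPM in Model libraries (SD, n = 3 each), with overlap and a 95% interval of -0.39 to 1.07 for the log2 fold change. Ptprz1 averaged 26.2 ± 10.2 CPM in ChryM and 23.3 ± 11.3 CPM in Model libraries, and its log2 fold change of 0.13 changed sign without ChryM 1 (-0.24) and without Model 2 (-0.20). Pdgfra had 9, 9 and 14 counts in ChryM and 6, 8 and 4 counts in Model libraries, a count ratio of 1.44 with an exact 95% interval of 0.785 to 2.73.

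**Figure D3:**
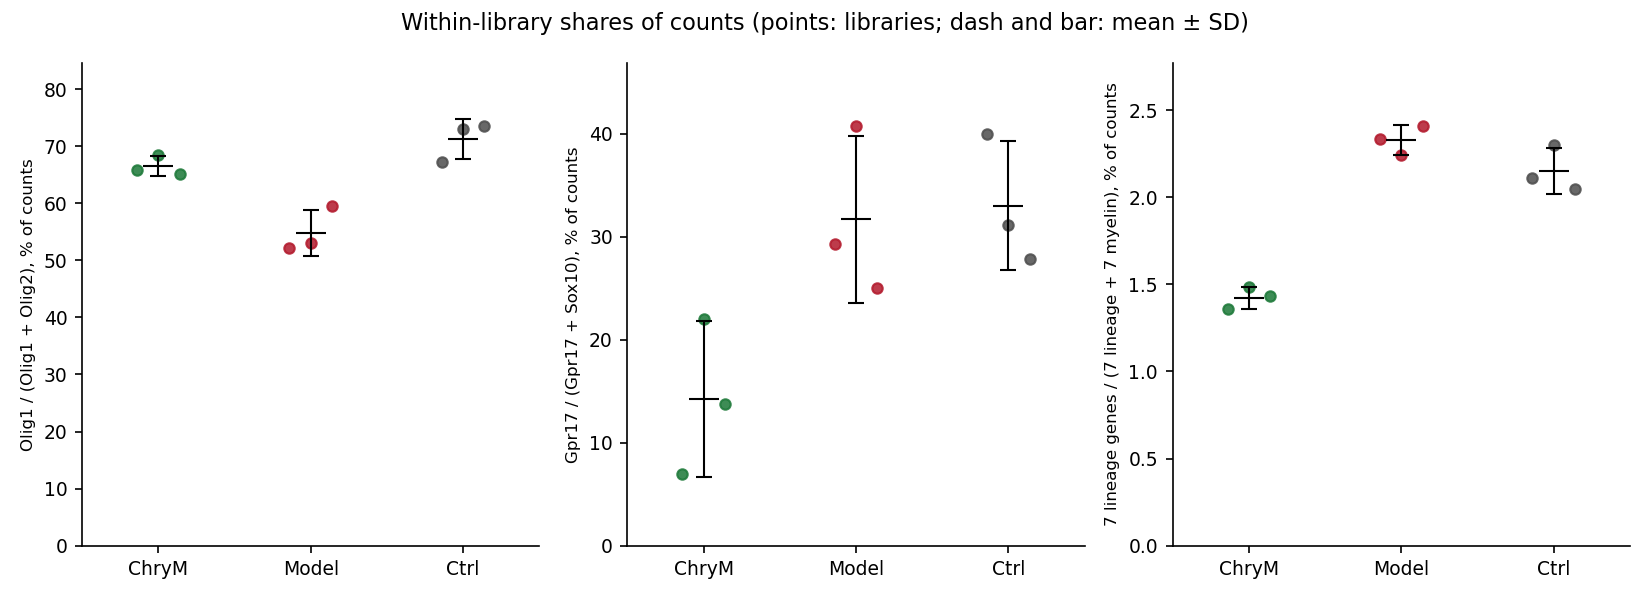
Shares of counts within each library, by group (points are libraries, dash and bar are mean ± SD, n = 3; axes start at 0). The Olig1 share of Olig1 and Olig2 is lowest in Model (54.9%), the Gpr17 share of Gpr17 and Sox10 is lowest in ChryM (14.2%), and the 7 lineage genes make up 1.42% in ChryM, 2.33% in Model and 2.15% in Ctrl of the counts of these 7 genes and 7 myelin genes, an order of ChryM and Ctrl that rests on Mbp and Mobp.

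The third comparison set ChryM against Ctrl; it shares the ChryM and the Ctrl libraries with the other comparisons and adds no libraries. Olig1, Gpr17 and Ptprz1 were lower in ChryM than in Ctrl (3 of 6 called), and none was higher, while 8.96% of all genes were called lower and 9.83% higher. The groups did not overlap for Olig1, Cspg4 and Gpr17, with ChryM below (3 of 6, against 15.8% of all genes). The median log2 fold change was -0.60 over the 6 genes and -0.01 over all genes.

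Gpr17 had the largest difference among the 7 genes in any of the comparisons. It averaged 8.77 ± 4.59 CPM in ChryM and 29.0 ± 5.04 CPM in Ctrl libraries (SD, n = 3 each), with 21 counts in all ChryM libraries and 69 in all Ctrl libraries. The log2 fold change was -1.71 ± 0.36 (edgeR adjusted p = 2.18e-05), 0.306 times the Ctrl level, and it was called in all 9 fits that left out 1 library. Olig1 averaged 71.3 ± 13.7 CPM in ChryM and 104 ± 3.98 CPM in Ctrl libraries, a log2 fold change of -0.53 ± 0.15 (edgeR adjusted p = 0.00486). ChryM 2 was the nearest to Ctrl, and without ChryM 3 the call of Olig1 ended (edgeR adjusted p = 0.0572). Ptprz1 averaged 26.2 ± 10.2 CPM in ChryM and 44.4 ± 13.1 CPM in Ctrl libraries, a log2 fold change of -0.78 ± 0.24 (edgeR adjusted p = 0.0118), although ChryM 1 at 37.8 CPM exceeded Ctrl 3 at 33.9 CPM. That call ended without ChryM 2, ChryM 3 or Ctrl 2 (edgeR adjusted p = 0.147, 0.0639 and 0.23), and the count of called genes fell to 1 without ChryM 3.

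Sox10 and Olig2 were not called in ChryM against Ctrl, but their intervals include a fall as large as that of Olig1. Sox10 averaged 52.3 ± 7.87 CPM in ChryM and 59.1 ± 6.93 CPM in Ctrl libraries, with a 95% interval of -0.55 to 0.18 for the log2 fold change of -0.18. Olig2 averaged 35.6 ± 3.92 CPM in ChryM and 42.2 ± 5.68 CPM in Ctrl libraries, with a 95% interval of -0.67 to 0.18 for the log2 fold change of -0.24. Cspg4 had 13 counts in each ChryM library and 19 to 23 in Ctrl libraries, and its log2 fold change of -0.67 ± 0.30 was not called (edgeR adjusted p = 0.0972). Pdgfra had 32 counts in all ChryM and 29 in all Ctrl libraries, a count ratio of 1.1 with an exact 95% interval of 0.642 to 1.88. The choroid plexus list summed to 82.8 to 105 CPM in ChryM libraries, against the 1773 to 1858 CPM of Ctrl libraries, and the pericyte list to 80.3 to 89.5 CPM in ChryM libraries, and their part in these differences was not tested.

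Other listed markers of precursors were called in both directions only in the comparisons that include ChryM, and the list is not exclusive to precursors. Of 24 further precursor markers in the table, 9 could be tested: 1 was lower and none higher in Model than in Ctrl, 1 was higher and 1 lower in ChryM than in Model, and 2 were higher and 2 lower in ChryM than in Ctrl. Ncan, which encodes the matrix proteoglycan neurocan, averaged 14.6 CPM in Model and 30.2 CPM in Ctrl libraries (log2 fold change -1.04 ± 0.32; edgeR adjusted p = 0.012). Nkx6-2, a transcription factor of later oligodendrocytes, averaged 45.3 CPM in ChryM, 22.9 CPM in Model and 27.5 CPM in Ctrl libraries. Its log2 fold change in ChryM against Model was 0.96 ± 0.26 (edgeR adjusted p = 0.00551). Gpr37l1, a receptor gene also made by astrocytes, averaged 25.5 CPM in ChryM and 42.8 CPM in Model libraries (log2 fold change -0.77 ± 0.25; edgeR adjusted p = 0.0301). The median log2 fold change over the 9 genes was -0.21 in Model against Ctrl and -0.16 in ChryM against Model.

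Among signalling genes of the lineage, those of pleiotrophin and midkine, secreted ligands of PTPRZ1, were lower in Model than in Ctrl, as was Ptprz1 itself. No other tested gene of the signalling list, Cntn1 and Nrcam included, was called lower in that comparison. Ptn, which encodes pleiotrophin, had 205, 239 and 190.0 CPM in Model libraries, against 326, 330.4 and 294 CPM in Ctrl libraries (log2 fold change -0.59 ± 0.10; edgeR adjusted p = 1.21e-06). Mdk, which encodes midkine, had 35.9, 35.9 and 33.1 CPM in Model libraries, against 78.0, 90.5 and 76.3 CPM in Ctrl libraries (log2 fold change -1.23 ± 0.21; edgeR adjusted p = 2.39e-07). In neither gene did the groups overlap. In ChryM against Model, Ptn was higher (274.5 CPM in ChryM and 211.5 CPM in Model libraries; log2 fold change 0.38 ± 0.10; edgeR adjusted p = 0.00689), whereas Mdk averaged 36.8 CPM in ChryM libraries and was called lower than in Ctrl libraries (log2 fold change -1.15 ± 0.19; edgeR adjusted p = 1.41e-07). Pdgfa, the ligand of PDGFRA, was not called, at 28.4 CPM in ChryM, 20.8 CPM in Model and 27.1 CPM in Ctrl libraries.

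The signalling genes called higher in Model than in Ctrl were Ntrk2 and Lingo1. Ntrk2, the receptor of BDNF, averaged 102 CPM in Model and 68.8 CPM in Ctrl libraries (log2 fold change 0.57 ± 0.16; edgeR adjusted p = 0.00712). Lingo1, which encodes an inhibitor of precursor differentiation made by neurons and by the lineage, averaged 152 CPM in Model and 115 CPM in Ctrl libraries (log2 fold change 0.41 ± 0.13; edgeR adjusted p = 0.0217). It was also called in ChryM against Model, at 102 CPM in ChryM and 152 CPM in Model libraries (log2 fold change -0.56 ± 0.13; edgeR adjusted p = 0.00147). In all, 17 of 45 signalling genes could be tested, with 2 higher and 2 lower in Model against Ctrl, 1 higher and 1 lower in ChryM against Model, and 4 lower in ChryM against Ctrl. Those 4 were Mdk, Cntn1, Nrcam and Fgfr1.

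Lists of genes from later stages of the lineage are given by their counts, and no difference between lists was tested. Of 11 tested genes of committed precursors and differentiation, 4 were lower in Model than in Ctrl (among them Cnp, Sirt2 and Gpr37), and 3 were higher and none lower in ChryM than in Model (among them Bcas1 and Nkx6-2). Bcas1, a marker of newly forming oligodendrocytes, averaged 1429 CPM in ChryM, 956 CPM in Model and 947 CPM in Ctrl libraries. Its log2 fold change in ChryM against Model was 0.58 ± 0.07 (edgeR adjusted p = 3.77e-11). Of 32 tested myelin and mature oligodendrocyte genes, 18 were lower and 3 higher (Qdpr, Hapln2 and Plekhb1) in Model than in Ctrl, and 13 were higher and none lower in ChryM than in Model. In ChryM against Ctrl, 13 of the 32 were lower and 3 higher, with a median log2 fold change of -0.26. Mobp, a myelin protein gene, averaged 7852 CPM in ChryM, 4083 CPM in Model and 6582 CPM in Ctrl libraries. Mbp, which encodes myelin basic protein, averaged 6945 CPM in ChryM, 4308 CPM in Model and 6601 CPM in Ctrl libraries.

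Set against 7 myelin genes (Mbp, Mobp, Cnp, Mag, Mog, Mal and Cldn11), the 7 lineage genes made up 1.42% ± 0.063 of the joint counts in ChryM libraries, 2.33% ± 0.085 in Model libraries and 2.15% ± 0.13 in Ctrl libraries (SD, n = 3 each). No ChryM library overlapped a Model or a Ctrl library in this share, while Model 2 (2.24%) lay below Ctrl 2 (2.30%), so that Model and Ctrl overlapped. The order of ChryM and Ctrl in this share rests on Mbp and Mobp. Set against the other 5 myelin genes alone, the 7 lineage genes made up 22.9% ± 1.34 in ChryM, 27.4% ± 1.77 in Model and 20.1% ± 1.33 in Ctrl libraries. ChryM 3 (21.4%) lay below Ctrl 2 (21.5%). The overlap of Model and Ctrl also rests on Mbp and Mobp. Without them every Model library (25.4% to 28.75%) lay above every Ctrl library (18.95% to 21.5%). In summed level, the 7 genes had 221 to 229 CPM in ChryM, 199.9 to 228 CPM in Model and 303 to 339 CPM in Ctrl libraries. The 36 myelin and mature genes summed to between 18130 and 19150 CPM in ChryM, 10870 and 11840 CPM in Model and 18510 and 18810 CPM in Ctrl libraries. Mbp and Mobp made up most of that sum. Without them the remaining 34 genes summed to 3659 to 3695 CPM in ChryM, 2819 to 2971 CPM in Model and 5333 to 5634 CPM in Ctrl libraries, and no groups overlapped. The values without Mbp and Mobp, and those without Apoe, were added after the data were seen.

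**Figure D4:**
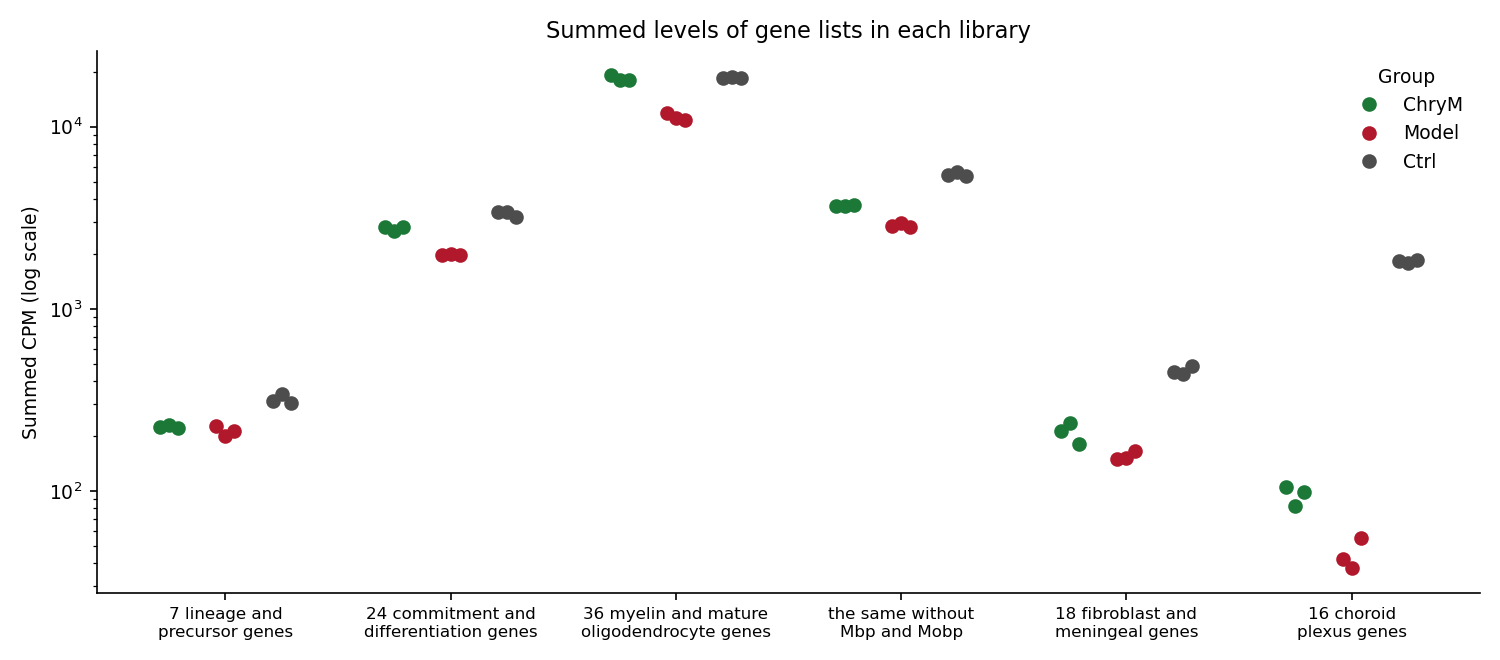
Summed level of 5 gene lists in each library, with the myelin list also shown without Mbp and Mobp, in CPM on a log scale, with ChryM, Model and Ctrl libraries as points (3 each). ChryM lies beside Model for the 7 lineage genes (221 to 229 and 199.9 to 228 CPM). For the myelin genes it lies beside Ctrl with Mbp and Mobp (18130 to 19150 and 18510 to 18810 CPM) and between Model and Ctrl without them (3659 to 3695 CPM), and the choroid plexus genes separate Ctrl from the other groups.

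Over the 9 libraries, the mean centred log2 CPM of the 6 tested genes was followed most closely by Dclk1 (Pearson r = 0.982), a neuronal kinase gene, among 6619 other genes with at least 10 CPM. Enc1, which encodes an actin-binding protein of neurons, followed at 0.98, and Cdkn1c, a cell cycle inhibitor gene, at 0.97. Enpp2, which encodes autotaxin and is expressed in choroid plexus and in oligodendrocytes, had 0.966, and Anks1b, a gene of synapses, had 0.965. All 5 were higher in Ctrl than in the other groups, with Dclk1 at 97.8 CPM in ChryM, 100 CPM in Model and 150 CPM in Ctrl libraries. These values describe the likeness over libraries that share their groups and their scaling, and no test was made of them.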

How the data were processed

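Poly(A) RNA of the hippocampus was sequenced in 9 strand-specific libraries, 3 per group, per the labels. The authors deposited a table of whole-number read counts for each gene and a table of FPKM values with gene lengths, per the file headers. Each FPKM value (100%) matched its count divided by gene length and library total within 1e-09 of its size, so the tables carry the same measurement. The submitters' processing notes list HISAT2 and DESeq2 and no versions. Which counter, genome build and annotation were used is not given in the sources used here.

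Genes were filtered with filterByExpr and scaled with TMM, and CPM are scaled to the counts of the tested genes. A fit with a coefficient per group was made with edgeR 4.0.16 (glmQLFit, robust, 6 residual degrees of freedom) in R 4.3.3 and tested two-sided with glmQLFTest. Adjusted p are Benjamini-Hochberg over all 7073 genes, and calls are made under 0.05. The printed SE is the larger of the test's and the counting error. Alternatives used DESeq2 1.42.0, limma 3.58.1 and sva 3.50.0. The pipeline was tested on simulated data. Exact intervals cover counting error only. Replicate numbers were not used as pairs: same-numbered libraries of different groups correlated at -0.03 to 0.04 in their deviations from group means.

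The 7 genes and all lists were chosen with earlier results of these data known. The text names all 7, up to 3 called genes per list and comparison with the smallest p, and the 5 genes most alike over libraries; the other named genes, in counts of a few or as ligands, were chosen after their values were seen. Gene positions, overlaps and promoters come from RefSeq tables of GRCr8. Raw reads were not used here, and some withheld items are not reported.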

Additional observations from a re-analysis of the deposited data

How the results depend on the processing

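Model against Ctrl had 4 called genes of 6, but 1 with DESeq2 (of 3 with an adjusted p; Cspg4, Gpr17 and Ptprz1 had none), 2 with no count filter, 2 with a mean count of at least 30 (3 genes tested), 0 with 1 surrogate variable, 2 with limma on log2(FPKM + 1), 1 on log2(FPKM + 0.1), and 1 to 4 (of 6 or 7 tested) when a library was left out. ChryM against Ctrl had 3, but 0 with DESeq2 (of 4 with an adjusted p; Cspg4 and Gpr17 had none), 1 with a mean count of at least 30, 1 on log2(FPKM + 0.1), and 1 to 3 when a library was left out. ChryM against Model had 0 in every alternative run. The surrogate variable was -0.44 and -0.65 in Model 1 and Model 2 and -0.06 to 0.36 in the other 7 libraries. Ptprz1 in ChryM against Model turned from 0.13 to -0.40 with the surrogate variable and ran from -0.24 to 0.38 when a library was left out. Gpr17 in Model against Ctrl was called with library totals (edgeR adjusted p = 0.0268). Of 378 values of single genes under alternatives, 343 kept direction and call, 31 lost the call, 1 gained it and 3 changed sign. The cause was not tested. Only genes called in the main fit could lose a call. In Model against Ctrl, Sox10 lost it in 9 of 22 alternatives, Cspg4 in 7 of 20, Ptprz1 in 5 of 20 and Olig1 in 1 of 22. In ChryM against Ctrl, Ptprz1 lost it in 6 of 21, Olig1 in 3 of 22 and Gpr17 in 0 of 20.

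With library totals the median of all genes in Model against Ctrl moved from -0.02 to -0.14, and the share of calls that were higher was 29.6% against 56.7%; in ChryM against Model it was 59.7% against 46.7% and in ChryM against Ctrl 38.8% against 52.3%. Over all genes, the 879, 585 and 1329 calls became 243, 91 and 428 on log2(FPKM + 0.1), 294, 132 and 516 on log2(FPKM + 1), and 423, 298 and 631 by DESeq2. With the surrogate variable there were 272, 222 and 1294. Replicate numbers did not pair the samples, and the fit with a replicate block called 4, 0 and 3 of the 6 genes and 855, 586 and 1317 genes in all. With 3 to 89 counts per gene and library, counting error alone gave an SE of 0.16 to 0.34 in Model against Ctrl.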

Other observations

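Genes of dividing cells were too low to follow precursor proliferation. Of 12 such genes 1 was tested, Mki67, at 32.8 CPM in ChryM, 26.4 CPM in Model and 38.0 CPM in Ctrl libraries, and it was not called in any of the comparisons. Sox8, a transcription factor closely related to Sox10, averaged 9.63 CPM in ChryM and 22.4 CPM in Ctrl libraries and was called lower there (log2 fold change -1.20 ± 0.36; edgeR adjusted p = 0.00664), whereas Sox10 was not. Zfp536, a zinc finger gene of the differentiation list, averaged 32.1 CPM in ChryM and 15.1 CPM in Ctrl libraries and was called higher (log2 fold change 1.06 ± 0.29; edgeR adjusted p = 0.00381). Myrf, the transcription factor that starts myelin gene expression, was not called in any comparison, at 56.7 CPM in ChryM, 52.0 CPM in Model and 45.3 CPM in Ctrl libraries. These genes were chosen after their values were seen.

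Of the remaining cell types, 6 of 12 tested neuronal genes were lower and none higher in ChryM than in Model, and 1 of 7 tested microglial genes (C1qa) was lower there. In Model against Ctrl, 1 neuronal gene was higher and 3 were lower, and 2 of 3 tested blood genes (Hba-a1 and Hbb) were lower.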
